A study of Mus musculus with 15 samples.

Results

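The genes of motile cilia and of the axoneme, the microtubule core of a beating cilium, were taken as a list of 53 mouse genes. Each was matched by gene symbol to the array annotation, and where a gene had several probe sets the brightest on average stood for it. All 53 were found among the 19939 genes that the array measures with a single-gene probe set. Of these, 44 passed the filter on low signal that left 10109 genes for testing, and the other 9 did not. The RNA was choroid plexus RNA of C57BL/6J mice, 3 weeks old and labelled male, with 5 Add1 null, 5 Add1 heterozygous and 5 wild-type animals. Add1 encodes alpha-adducin, a protein of the membrane skeleton that caps actin filaments. Each animal gave 1 Affymetrix array, and the design text places the sampling before hydrocephalus develops in the null mice. The labels name no other allele and no treatment, and they give neither litter nor the part of Add1 that was removed.

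A motile cilium carries outer doublet microtubules around a central pair. Outer and inner dynein arms on the doublets drive sliding, radial spokes and the nexin-dynein regulatory complex (N-DRC) shape it into a beat, and dynein arms are put together in the cytoplasm before transport. The forkhead factor Foxj1 and the regulatory factor X (RFX) proteins, which bind a DNA element called the X-box, switch these genes on. Choroid plexus epithelial cells carry tufts of cilia, and the ependymal cells that line the neighbouring ventricles carry beating ones, so a dissected plexus can hold both.

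Add1 itself measured 7.66, 7.74, 7.76, 7.46 and 7.41 on null arrays 1 to 5, against 7.96, 8.04, 7.78, 7.81 and 8.0 on wild-type arrays 1 to 5 (log2 signal). It was lower in null by 0.31 on the log2 scale (limma adjusted p = 0.0241), and no null array reached the lowest wild-type array. The call was lost without null array 4 or wild-type array 1 or 2 (-0.30 to -0.28, adjusted p = 0.0512 to 0.0681), without null arrays 1 and 5 together, with only the 2 genotypes fitted and with a number from the sample descriptions, taken up at the end of the paragraph, as a covariate. The replicate number as a block also ended this call. The labels do not say whether the 1 probe set of Add1 lies inside the altered part of the gene. The plexus markers were strong on every array, with transthyretin (Ttr) between 12.85 and 13.14 in null, 12.97 and 13.09 in heterozygous and 12.99 and 13.19 in wild type. Xist, the transcript of the inactive X chromosome, measured 9.09 on null array 1 and 9.69 on null array 5 and between 3.11 and 3.88 on the other 13 arrays, which goes against the male label of those 2 animals. Heterozygous array 1 carried more neural transcripts than any other: the neuronal receptor subunit Gabra6 measured 7.80 there and 4.42 to 5.69 elsewhere, and the synaptic protein Snap25 measured 7.72 there and 5.26 to 6.56 elsewhere. Calls that ended without these arrays are named beside each gene. The sample descriptions also carry a number whose meaning the labels do not give. It ran with genotype: 8 of the 10 arrays of the other genotypes had a number below every null array, and null shared 0 numbers with wild type and 1 with heterozygous, so a fit with this description number as a covariate separates it from genotype only in part. With the covariate 4 cilia genes were called between null and wild type, of which 2 (Dnaic1 and Cfap54) were among the 6 reported here and 2 (Dnaic2 and Spef2) were not, and 1 (Dnaic2) was called between null and heterozygous.

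Promoter sequence was available for 43 of the 53 genes, in RefSeq windows on GRCm38.p6 that run from 250 bases before to 50 bases after each gene's start. The X-box in full, GTTNCNN followed directly by NGGNAAC, was present on either strand in 7 of the 43 windows (16.3%) and in 0.936% of the windows of all 27025 genes. Those 7 belonged to Ccdc151, Cfap44, Spag16, Hydin, Tekt4, Cfap45 and Enkur. One arm of the element with its spacer, GTTGCCNNG, was present in 16 of 43 windows (37.2%), against 5.74% of all windows; Spag16 and Enkur held both forms, which can overlap. Either form was found in 21 of 43 windows (48.8%), against 6.25% of all. The forkhead letters GTAAACA were present in 2 windows, those of Cfap43 and Ak7 (4.65%), against 4.05% of all windows. These forms were chosen after their counts had been seen, a match is a run of letters and not a shown binding site, and the shares carry no test.

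Of the 6 members called between null and wild type, 4 had a promoter window, and 2 of these held the X-box arm, 1 in a gene that was higher in null and 1 in a gene that was lower. They are shown 5′ to 3′ on the plus strand of GRCm38.p6 up to the start of the gene, with the arm in capitals. The capitals match the same pattern in both genes, but the bases at its open N positions are not all alike. Ccdc153 lies on chromosome 9 and its window is chr9:44240427-44240676, with the arm 152 bases before the start. Dynlrb2 lies on chromosome 8 and its window is chr8:116504765-116505014, with the arm 51 bases before the start. The bases just after the capitals are acaacg in Ccdc153 and caacgg in Dynlrb2, and neither window matched the full form as searched. That form fixed the spacing and the letters GG, so an X-box with another spacing or second arm would not be counted. Whether either window holds such an X-box was not tested. No match was found in the windows of Dnaic1 and Dnah6.
Ccdc153: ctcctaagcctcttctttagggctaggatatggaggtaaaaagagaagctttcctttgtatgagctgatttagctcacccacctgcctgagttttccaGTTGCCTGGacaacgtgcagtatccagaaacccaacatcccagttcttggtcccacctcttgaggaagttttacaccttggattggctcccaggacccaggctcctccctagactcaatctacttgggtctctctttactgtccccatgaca
Dynlrb2: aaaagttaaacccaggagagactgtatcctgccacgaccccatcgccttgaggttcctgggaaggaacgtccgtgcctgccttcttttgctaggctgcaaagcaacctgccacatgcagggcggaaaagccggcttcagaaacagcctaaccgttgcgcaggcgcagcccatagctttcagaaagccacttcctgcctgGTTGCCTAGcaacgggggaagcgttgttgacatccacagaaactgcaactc

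Between null and wild-type choroid plexus, 6 of the 44 tested cilia genes passed an adjusted p of 0.05 (limma, Benjamini-Hochberg over all 10109 genes), which is 13.6% of them. Of all genes tested, 780 passed, and 7.72% is the background for that count. The central-pair gene Cfap54 and the N-DRC gene Ccdc153 were higher in null, 2 of 44 beside a background of 4.17% for that direction. The outer-arm gene Dnaic1, the inner-arm gene Dnah6, the radial-spoke gene Rsph1 and the dynein light chain Dynlrb2 were lower in null, 4 of 44 beside a background of 3.54%. The median difference over the 44 genes was -0.045 on the log2 scale, against 0.012 over all genes tested. Positive differences were found for 18 genes and negative ones for 26, and 15 and 29 when each array was centred on its median. That centring also turned the calls over all genes from 422 higher and 358 lower (54.1% higher) to 262 higher and 558 lower (32% higher), and brought the cilia genes to 2 higher and 6 lower. In tissue RNA, a change in the number of ciliated cells and a change in RNA per ciliated cell cannot be told apart.

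**Figure D1:**
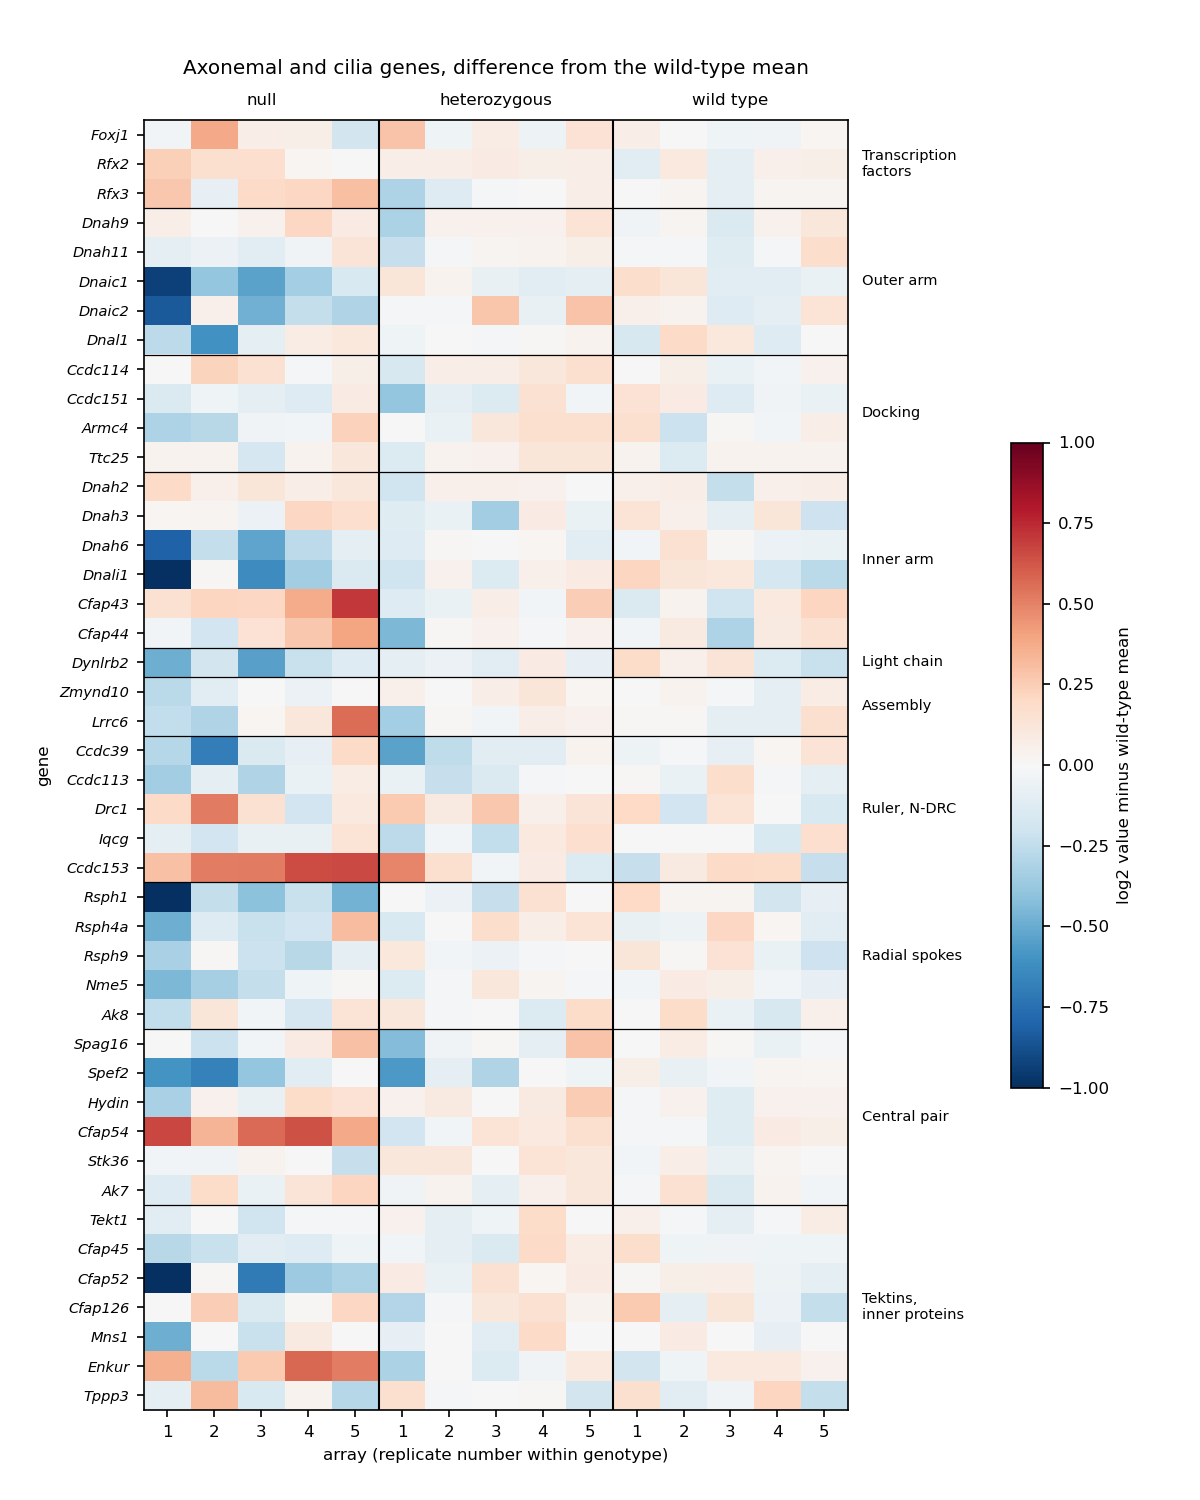
Heat map of the 44 tested cilia genes (rows, by axonemal part) on the 15 arrays (columns, null left, heterozygous middle, wild type right). Colour is the log2 value minus the wild-type mean of that gene, red above and blue below, with the darkest blue holding every value of -1 or less. Blue cells gather in the null columns for Dnaic1, Dnaic2, Dnah6, Dnali1, Rsph1 and Cfap52, deepest on null array 1, and red cells for Cfap54 and Ccdc153 run across all 5 null columns.

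The 3 transcription factors were tested and none was called in the fit of all arrays, although Rfx3 passed under some alternatives. Foxj1 measured 7.60, 8.0, 7.69, 7.68 and 7.44 on null arrays 1 to 5, 7.91, 7.58, 7.70, 7.57 and 7.77 on heterozygous arrays 1 to 5, and 7.69, 7.62, 7.58, 7.59 and 7.64 on wild-type arrays 1 to 5. The null arrays lay on both sides of the wild-type ones, and the difference was 0.06 (adjusted p = 0.731). Rfx2 measured 6.83, 6.75, 6.76, 6.61 and 6.59 on null arrays 1 to 5, 6.66, 6.66, 6.67, 6.65 and 6.66 on heterozygous arrays 1 to 5, and 6.48, 6.69, 6.49, 6.64 and 6.65 on wild-type arrays 1 to 5. Its groups overlapped, with a difference of 0.12 between null and wild type (adjusted p = 0.241). Rfx3 measured 8.76, 8.41, 8.68, 8.70 and 8.79 on null arrays 1 to 5, 8.18, 8.36, 8.47, 8.49 and 8.56 on heterozygous arrays 1 to 5, and 8.49, 8.52, 8.40, 8.52 and 8.52 on wild-type arrays 1 to 5. Apart from array 2, each null array lay above all heterozygous and wild-type ones. The Rfx3 difference was 0.18 between null and wild type (adjusted p = 0.17) and 0.26 between null and heterozygous (adjusted p = 0.0517). Without null array 2 it passed in both comparisons, at 0.24 (adjusted p = 0.0273) and 0.32 (adjusted p = 0.00612), and without heterozygous array 5 it passed between null and heterozygous, at 0.29. Between null and heterozygous it also passed with a mean above 6 as the filter, with arrays quantile normalized again, with a variance trend and robust prior, and with array weights (adjusted p = 0.0176 to 0.0479).

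Among the outer-arm genes, the intermediate chain Dnaic1 was lower in null, and 4 others did not pass between null and wild type. Dnaic1 measured 5.44, 5.99, 5.84, 6.04 and 6.22 on null arrays 1 to 5, 6.50, 6.41, 6.30, 6.26 and 6.29 on heterozygous arrays 1 to 5, and 6.55, 6.50, 6.26, 6.26 and 6.31 on wild-type arrays 1 to 5. Every null array lay below every array of the other genotypes. Its mean was 5.91 ± 0.29 in null and 6.38 ± 0.14 in wild type (SD, n = 5 each), a difference of -0.47 ± 0.11 (SE, limma adjusted p = 0.0163), with the null signal at 72.2% of wild type. Against heterozygotes the difference was -0.45 (adjusted p = 0.0233). The call against wild type was lost without wild-type array 1 (-0.43, adjusted p = 0.0539), and that against heterozygotes without null array 3 or heterozygous array 1 (adjusted p = 0.056 to 0.0569), with only the 2 genotypes fitted and with the description number as a covariate.

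The partner intermediate chain Dnaic2 measured 5.93, 6.82, 6.29, 6.53 and 6.47 on null arrays 1 to 5, 6.76, 6.75, 7.05, 6.70 and 7.06 on heterozygous arrays 1 to 5, and 6.82, 6.81, 6.64, 6.68 and 6.91 on wild-type arrays 1 to 5. Null array 2 lay among the other genotypes and the remaining 4 null arrays lay below them. The difference was -0.36 ± 0.12 against wild type (SE, limma adjusted p = 0.0822) and -0.46 ± 0.12 against heterozygotes (adjusted p = 0.0345), and only the second was called. That call was lost without null array 1 or 3 or heterozygous array 1, 3 or 5, with differences of -0.48 to -0.34 and adjusted p of 0.0502 to 0.0881, without null arrays 1 and 5 together (adjusted p = 0.144), without the filter on low signal and with only the 2 genotypes fitted. The call against wild type was gained without null array 2 (-0.47, adjusted p = 0.0121), with median centring, with array weights and with the description number as a covariate. The heavy chains Dnah9 and Dnah11 differed from wild type by 0.08 and -0.03 and the light chain Dnal1 by -0.15, with none called. The heavy chain Dnah5 did not pass the filter, at 4.33 ± 0.14 in null and 4.29 ± 0.12 in wild type.

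None of the 4 genes that dock the outer arm to the doublet was called. Ccdc114, which had the smallest p of them, measured 7.43, 7.65, 7.58, 7.42 and 7.49 on null arrays 1 to 5, 7.27, 7.50, 7.50, 7.54 and 7.59 on heterozygous arrays 1 to 5, and 7.43, 7.49, 7.36, 7.40 and 7.47 on wild-type arrays 1 to 5. Its groups overlapped, with a difference of 0.08 from wild type (adjusted p = 0.464). Ccdc151, Armc4 and Ttc25 differed by -0.06, -0.08 and 0.01. The cytoplasmic assembly factors Zmynd10 and Lrrc6 were not called either. Zmynd10 measured 6.39, 6.55, 6.66, 6.60 and 6.66 on null arrays 1 to 5, 6.71, 6.66, 6.73, 6.78 and 6.68 on heterozygous arrays 1 to 5, and 6.66, 6.70, 6.64, 6.57 and 6.74 on wild-type arrays 1 to 5, with null array 1 the lowest of all 15. Its difference was -0.09 (adjusted p = 0.37) and that of Lrrc6 was 0.03.

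Of the 9 inner-arm genes 6 were tested, and 1, the heavy chain Dnah6, was called. Dnah6 measured 6.98, 7.55, 7.26, 7.53 and 7.69 on null arrays 1 to 5, 7.66, 7.80, 7.79, 7.81 and 7.68 on heterozygous arrays 1 to 5, and 7.76, 7.94, 7.80, 7.73 and 7.72 on wild-type arrays 1 to 5. All null arrays lay below all wild-type arrays, array 5 only just, and null array 5 overlapped the heterozygotes. Its mean was 7.40 ± 0.28 in null and 7.79 ± 0.09 in wild type (SD, n = 5 each), a difference of -0.39 ± 0.10 (SE, limma adjusted p = 0.0275), with the null signal at 76.4% of wild type, and -0.35 against heterozygotes (adjusted p = 0.0443). All 3 probe sets of Dnah6 had lower values in null than in wild type, with differences of -0.51 to -0.39. The call against wild type was lost without null array 1 or 3 or wild-type array 1, 2 or 3 (-0.40 to -0.28, adjusted p = 0.0519 to 0.0755), with only the 2 genotypes fitted and with the description number as a covariate. The call against heterozygotes was lost without any 1 of 12 arrays, the exceptions being null arrays 2, 4 and 5 (-0.37 to -0.24, adjusted p = 0.0519 to 0.107). It was also lost without the filter, with median centring, with only the 2 genotypes fitted and with the description number as a covariate.

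The other inner-arm genes had differences of both signs and none was called. The light intermediate chain Dnali1 measured 5.76, 6.84, 6.20, 6.48 and 6.68 on null arrays 1 to 5, against 7.04, 6.95, 6.93, 6.65 and 6.56 on wild-type arrays 1 to 5, and differed by -0.43 ± 0.15 (SE, limma adjusted p = 0.0941) with overlapping groups. Cfap43 and Cfap44, which in Chlamydomonas and Tetrahymena tether inner-arm dynein to the doublet, had positive differences. Cfap43 measured 8.70, 8.76, 8.75, 8.92 and 9.25 on null arrays 1 to 5, against 8.40, 8.58, 8.35, 8.64 and 8.76 on wild-type arrays 1 to 5. Its difference was 0.33 (adjusted p = 0.0614), and all 5 of its probe sets had positive differences, of 0.15 to 0.35. Cfap44 differed by 0.12 and the heavy chains Dnah2 and Dnah3 by 0.11 and 0.07, none called; Dnah3 had 33 probe sets, of which 17 had positive and 15 negative differences. Dnah1, Dnah10 and Dnah12 did not pass the filter. Dnah12 averaged 4.64 ± 0.41 in null, 4.15 ± 0.18 in heterozygotes and 4.21 ± 0.13 in wild type, with the highest value, 5.34, on null array 5.

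Dynlrb2, a roadblock-type light chain that also serves the dynein of ciliary transport, measured 7.02, 7.33, 6.97, 7.29 and 7.38 on null arrays 1 to 5, 7.41, 7.45, 7.40, 7.59 and 7.43 on heterozygous arrays 1 to 5, and 7.69, 7.56, 7.64, 7.37 and 7.29 on wild-type arrays 1 to 5. All null arrays lay below all heterozygous arrays but overlapped wild-type arrays 4 and 5. Its mean was 7.20 ± 0.19 in null and 7.51 ± 0.17 in wild type (SD, n = 5 each). The difference was -0.31 ± 0.09 against wild type (SE, limma adjusted p = 0.0446) and -0.26 against heterozygotes (adjusted p = 0.0839). The call was lost without null array 1 or 3, heterozygous array 2, 3 or 5, or wild-type array 1, 2 or 3 (-0.31 to -0.26, adjusted p = 0.0557 to 0.124), and without null arrays 1 and 5 together (adjusted p = 0.0933). It was also lost without the filter, with only the 2 genotypes fitted and with the replicate number as a block. The description number as a covariate or as a random block ended it too.

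In the group of the ruler and the N-DRC, 1 of 5 tested genes was called. Ccdc153, a coiled-coil subunit of the N-DRC, measured 6.07, 6.29, 6.30, 6.43 and 6.44 on null arrays 1 to 5, 6.27, 5.94, 5.75, 5.86 and 5.64 on heterozygous arrays 1 to 5, and 5.55, 5.87, 5.97, 5.96 and 5.55 on wild-type arrays 1 to 5. All null arrays lay above all wild-type arrays, and heterozygous array 1, the one with high neural transcripts, lay among the null arrays. Its mean was 6.31 ± 0.15 in null and 5.78 ± 0.21 in wild type (SD, n = 5 each), a difference of 0.53 ± 0.11 (SE, limma adjusted p = 0.0107), with the null signal at 144.0% of wild type. Leaving out any 1 array kept that call, with differences of 0.47 to 0.59, and the description number as a covariate ended it (adjusted p = 0.075). Against heterozygotes the difference was 0.41 (adjusted p = 0.0371), and this call was lost without null array 3, 4 or 5 or heterozygous array 2, 3, 4 or 5 (0.35 to 0.43, adjusted p = 0.0594 to 0.0897) without null arrays 1 and 5 together (adjusted p = 0.0747), without the filter, with only the 2 genotypes fitted and with the covariate. The replicate number as a block also ended the Ccdc153 call against heterozygotes. Ccdc39, which with Ccdc40 forms the ruler that sets the axonemal repeat, differed from wild type by -0.20 and was not called. Ccdc40 did not pass the filter. Ccdc113 and the N-DRC subunits Drc1 and Iqcg differed by -0.15, 0.15 and -0.06, none called.

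Radial-spoke genes had negative differences in all 5 cases, with a median of -0.182, and 1 was called. Over all 10109 genes tested, 4654 differences were negative and 7.72% were called. Averaged over the 5 genes, the deviation from the wild-type mean was -0.51, -0.114, -0.224, -0.18 and -0.022 on null arrays 1 to 5. Rsph1, a spoke-head protein, measured 6.97, 7.76, 7.59, 7.78 and 7.53 on null arrays 1 to 5, 8.0, 7.94, 7.77, 8.15 and 8.0 on heterozygous arrays 1 to 5, and 8.20, 8.03, 8.03, 7.82 and 7.92 on wild-type arrays 1 to 5. All null arrays lay below all wild-type arrays, and null array 4 reached the lowest heterozygous one. Its mean was 7.53 ± 0.33 in null and 8.0 ± 0.14 in wild type (SD, n = 5 each), a difference of -0.47 ± 0.12 (SE, limma adjusted p = 0.0275), with the null signal at 72.0% of wild type, and -0.45 against heterozygotes (adjusted p = 0.0364). The call against wild type was lost without wild-type array 1, 2 or 3 (-0.47 to -0.42, adjusted p = 0.0609 to 0.0803) without null arrays 1 and 5 together (-0.29, adjusted p = 0.0918), with only the 2 genotypes fitted and with the description number as a covariate. The call against heterozygotes was lost without null array 1, 3 or 5 or heterozygous array 1, 2, 4 or 5 (-0.46 to -0.31, adjusted p = 0.0518 to 0.0744), without null arrays 1 and 5 together, without the filter, with only the 2 genotypes fitted and with the covariate. Both Rsph1 calls were also lost with the replicate number as a block. The spoke-head proteins Rsph4a and Rsph9 differed from wild type by -0.15 and -0.18. The spoke protein Nme5 differed by -0.21 and the adenylate kinase Ak8 by -0.04, and none of these genes was called.

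Central-pair genes gave the call with the smallest p of all members. Cfap54, a large central-pair protein whose loss in mice impairs cilia, measured 8.97, 8.64, 8.87, 8.94 and 8.68 on null arrays 1 to 5, 8.11, 8.27, 8.44, 8.40 and 8.46 on heterozygous arrays 1 to 5, and 8.29, 8.29, 8.18, 8.38 and 8.36 on wild-type arrays 1 to 5. Every null array lay above every array of the other genotypes, which overlapped each other. Its mean was 8.82 ± 0.15 in null and 8.30 ± 0.08 in wild type (SD, n = 5 each), a difference of 0.52 ± 0.08 (SE, limma adjusted p = 0.00135), with the null signal at 143.4% of wild type, and 0.48 against heterozygotes (adjusted p = 0.00257). Leaving out any 1 array kept both calls, at 0.48 to 0.57 against wild type and 0.43 to 0.53 against heterozygotes. With the description number as a covariate the call against wild type was kept (adjusted p = 0.0432) and that against heterozygotes was lost (adjusted p = 0.0529). The second Cfap54 probe set gave 0.30 and 0.44. Spef2, a central-pair scaffold, measured 7.27, 7.19, 7.48, 7.75 and 7.87 on null arrays 1 to 5, against 7.92, 7.79, 7.84, 7.89 and 7.88 on wild-type arrays 1 to 5. It differed by -0.35 on the probe set used (limma adjusted p = 0.0881). Over its 22 probe sets the median was -0.15, with 20 negative. Between heterozygous and wild type all 22 were negative, with a median of -0.14. Between null and heterozygous 13 were positive and 9 negative, with a median of 0.02. Spag16, Hydin, the kinase Stk36 and the adenylate kinase Ak7 differed from wild type by 0.03, -0.00, -0.05 and 0.07. Spag17 and Spag6 did not pass the filter. A gene of similar sequence, Spag6l, measured 8.80 to 9.03 in null, 8.76 to 8.99 in heterozygotes and 8.91 to 8.98 in wild type, with a difference of -0.02 from wild type, and the annotation also lists it under the name Spag6.

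**Figure D2:**
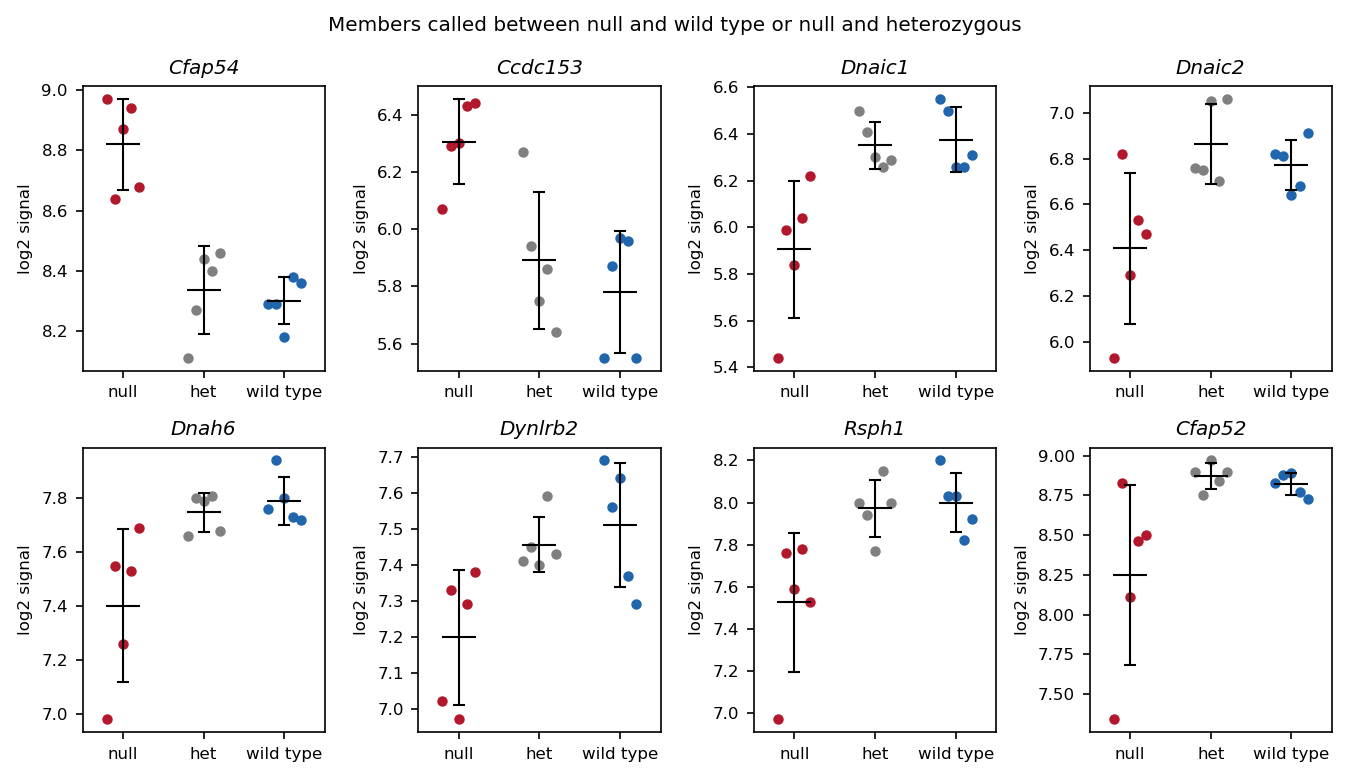
Log2 signal of the 8 cilia genes called between null and wild type or between null and heterozygous, with 1 point per array and bars for the mean ± SD of 5 arrays. Cfap54 and Ccdc153 stand above wild type on every null array, and for the other 6 genes the lowest null point or points (7.34 for Cfap52, 5.44 for Dnaic1) stretch the null group downward.

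Tektins and proteins inside the doublet tubules had no call between null and wild type among 7 tested. Cfap52, an inner protein of the doublet, measured 7.34, 8.83, 8.11, 8.46 and 8.50 on null arrays 1 to 5, 8.90, 8.75, 8.97, 8.84 and 8.90 on heterozygous arrays 1 to 5, and 8.83, 8.88, 8.89, 8.77 and 8.73 on wild-type arrays 1 to 5. Null array 2 lay within the wild-type range and the other 4 null arrays lay below it, array 1 by far the most. The null SD of 0.57 compared with 0.07 in wild type. The difference was -0.57 ± 0.18 against wild type (SE, limma adjusted p = 0.0601) and -0.62 ± 0.18 against heterozygotes (adjusted p = 0.0421), and only the second was called. Without null array 1 the second difference shrank to -0.40 (adjusted p = 0.0407). That call was lost without null array 3, any 1 heterozygous array or wild-type array 1, 2, 3 or 4 (-0.65 to -0.59, adjusted p = 0.0522 to 0.0951), and without null arrays 1 and 5 together (-0.41, adjusted p = 0.0646). It was also lost without the filter, with only the 2 genotypes fitted and with a variance trend and robust prior. The replicate number as a block and the description number as a covariate ended it too. Against wild type the call was gained without null array 2 (-0.72, adjusted p = 0.00947) or null array 5, with a mean above 6 as the filter, with median centring and with array weights. Enkur, another inner protein, measured 6.13, 5.51, 6.04, 6.35 and 6.29 on null arrays 1 to 5, against 5.59, 5.73, 5.87, 5.87 and 5.82 on wild-type arrays 1 to 5, and differed by 0.29 (adjusted p = 0.165). Tekt1, Cfap45, Cfap126, Mns1 and Tppp3 differed by -0.16 to 0.06, none called, and Tekt2 and Tekt4 did not pass the filter.

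The members just inside and just outside the threshold against wild type were Dynlrb2, Cfap52 and Cfap43, with adjusted p of 0.0446, 0.0601 and 0.0614. The 9 genes below the filter measured between 3.56 and 5.34 on all 15 arrays. At the unadjusted level, 16 of the 44 tested genes had p under 0.05, as did 2429 of all 10109 genes. The arrays of null and wild type did not overlap for 5 cilia genes, against 5.95% of all genes. Which genes were called depended on single arrays: leaving out wild-type array 1 left 2, wild-type array 2 or 3 left 3, and leaving out null array 2 gave 13. The count over all genes moved in the same direction, from 780 to 392, 438 and 449 without wild-type array 1, 2 or 3. It was 1420 without null array 2. Without null arrays 1 and 5, an alternative added after the data had been seen, 4 remained called (Dnaic1, Dnah6, Ccdc153 and Cfap54), while the count over all genes was 401.

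**Figure D3:**
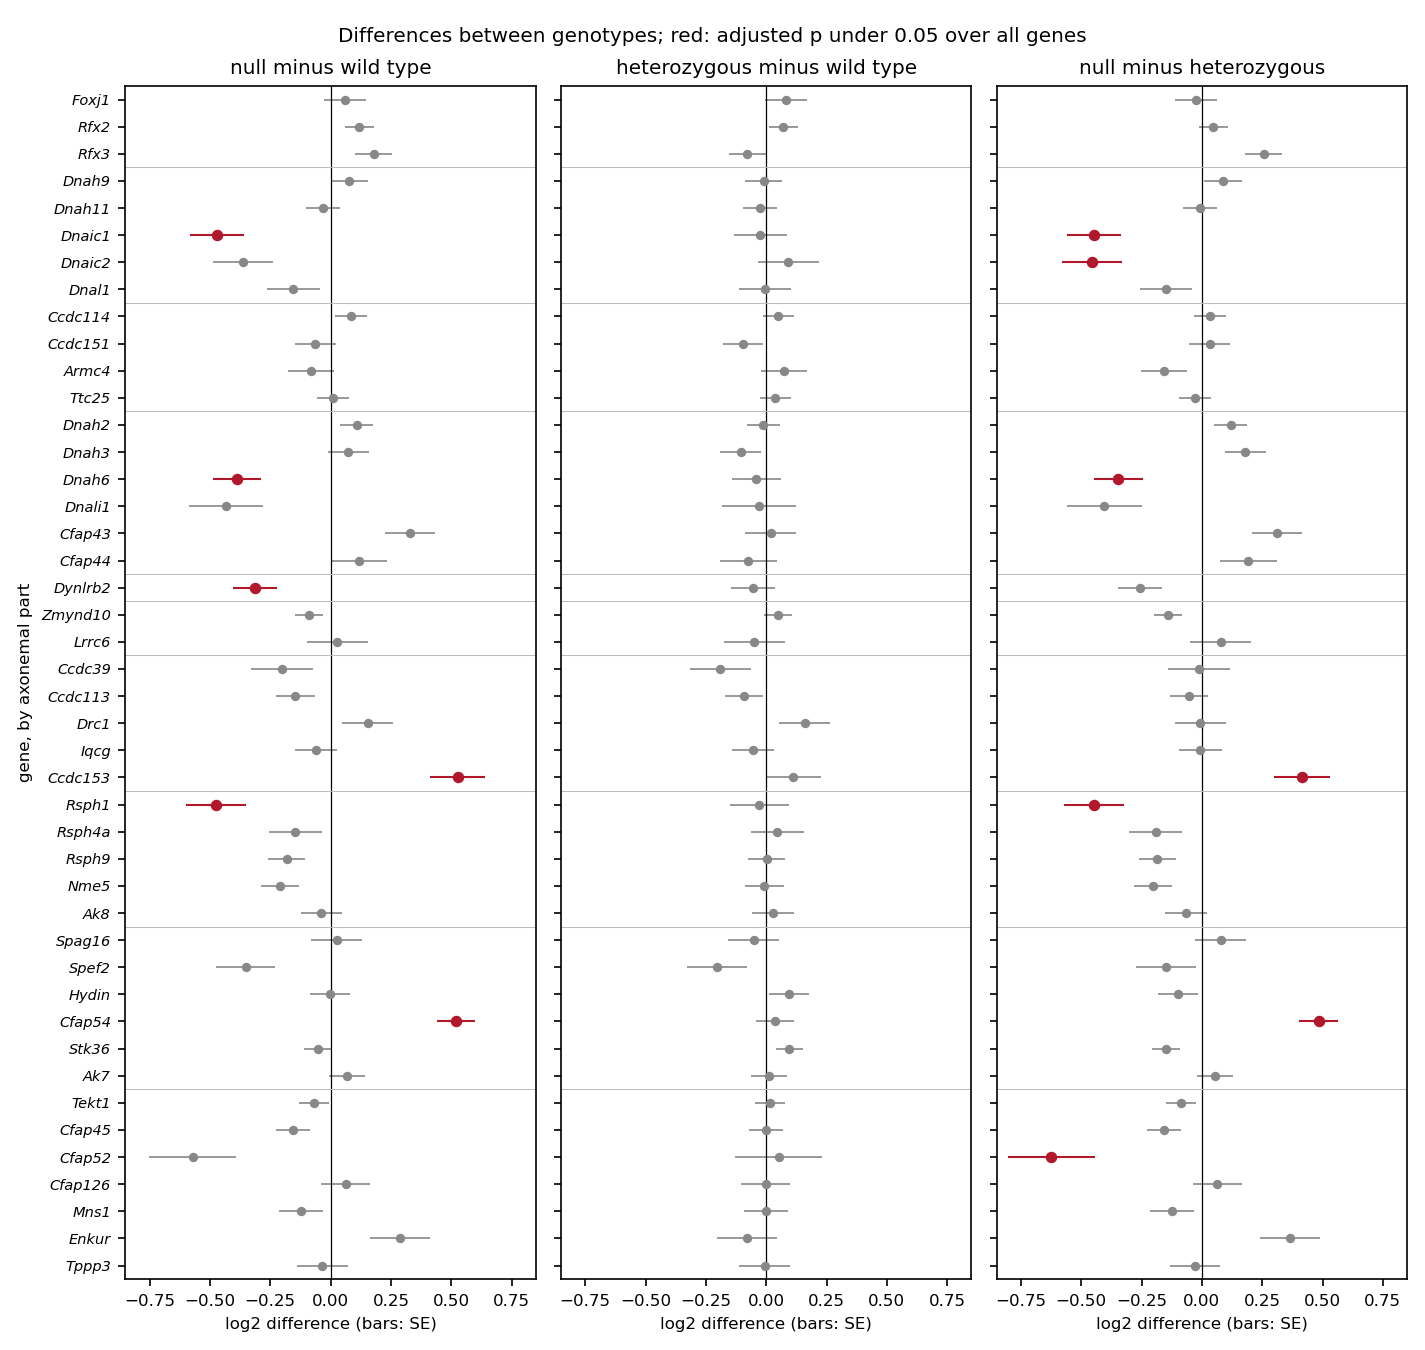
Log2 differences (points) with standard errors (bars) for the 44 tested cilia genes, by axonemal part, for null minus wild type (left), heterozygous minus wild type (middle) and null minus heterozygous (right). Red points passed an adjusted p of 0.05 over all genes, 6 on the left, 0 in the middle and 7 on the right, and the middle points lie between -0.20 and 0.16.

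Between null and heterozygous plexus, 7 of 44 cilia genes were called (15.9%), against 7.82% of all genes. This comparison shares its null arrays with the one above, so it is no second observation of them. Cfap54 and Ccdc153 were higher in null, 2 of 44 beside a background of 4.28%. Dnaic1, Dnaic2, Dnah6, Rsph1 and Cfap52 were lower, 5 of 44 beside a background of 3.54%. The median difference was -0.028, against 0.008 over all genes, and the arrays did not overlap for Cfap54, Dnaic1 and Dynlrb2, against 5.76% of all genes. Leaving out heterozygous array 1, which carried the neural transcripts, left 2 called, Ccdc153 and Cfap54. Leaving out heterozygous array 2, 3 or 4 left 3 of the 7, and heterozygous array 5 left 2 of them (Dnaic1 and Cfap54) and added Rfx3. Leaving out null array 1 left 4, null array 3 left 1 and null array 2 gave 13. Without null arrays 1 and 5, 3 were called (Dnaic1, Dnah6 and Cfap54). Over all genes, 791 were called with every array kept. That count was 456, 520, 413, 587 and 624 without heterozygous array 1, 2, 3, 4 or 5. It was 356, 401 and 1812 without null array 1, 3 or 2, and 332 without null arrays 1 and 5.

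Between heterozygous and wild-type plexus no cilia gene was called by limma, and 0 of all 10109 genes were (0%). At an unadjusted p under 0.05 there were 0 of the 44 cilia genes and 381 of all genes. The arrays overlapped for all 44, and 0.801% of all genes did not overlap. The differences ran from -0.20 for Spef2 (7.66 ± 0.24 in heterozygotes, 7.86 ± 0.05 in wild type) to 0.16 for Drc1 (5.78 ± 0.10 in heterozygotes, 5.62 ± 0.17 in wild type). Their median was -0.003, against 0.002 over all genes. Leaving out any 1 array, heterozygous array 1 included, left the count of called cilia genes at 0. A p that misses the threshold does not show that the 2 genotypes are alike.

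The genes that were lower in null did not fall evenly over the null arrays. Averaged over the 6 genes called lower in either comparison with null, the deviation from the wild-type mean was -0.931 on null array 1, -0.165 on array 2, -0.535 on array 3, -0.273 on array 4 and -0.246 on array 5. The heterozygous arrays lay between -0.028 and 0.015 and the wild-type arrays between -0.106 and 0.097. The 2 genes called higher averaged 0.425 to 0.645 on the null arrays, 0.010 to 0.150 on the heterozygous arrays and -0.120 to 0.130 on the wild-type arrays. These 8 genes were picked by their calls, so the averages are a description. Over all 44 tested genes, null array 1 was the lowest null array for 20 genes and null array 5 the highest for 23, and heterozygous array 1 was the lowest of its genotype for 22. The median residual SD within genotypes was 0.151 for the cilia genes, from 0.075 for Stk36 to 0.334 for Cfap52, and 0.122 for all genes.

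**Figure D4:**
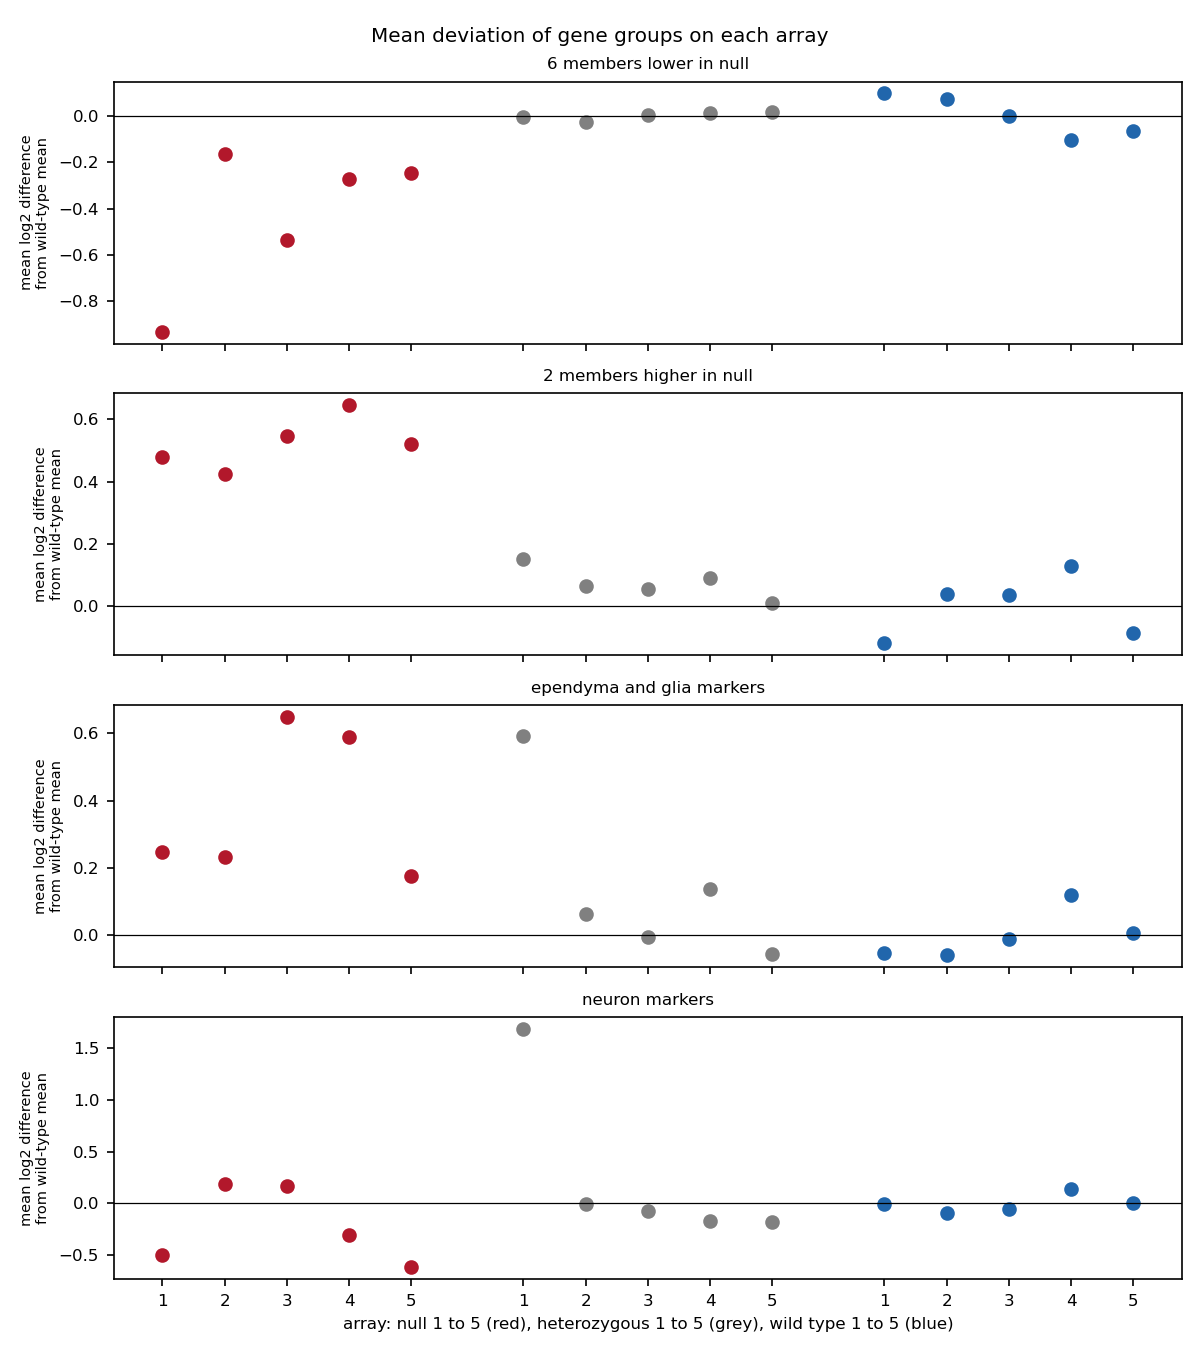
Mean log2 deviation from the wild-type mean on each of the 15 arrays (null red, heterozygous grey, wild type blue) for the 6 cilia genes called lower in null, the 2 called higher, 14 ependymal and glial markers and 6 neuronal markers. Null array 1 is lowest in the top panel at -0.931, and the higher genes are level across null arrays. Heterozygous array 1 stands out for neuronal markers (1.68). For ependymal and glial markers it is the highest of its genotype (0.591), with null arrays 3 and 4 at 0.648 and 0.588.

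Genes used as markers of cell types were measured on the same arrays. All 14 markers of ependyma and glia outside the cilium had positive differences between null and wild type, with a median of 0.413. Positive differences were found for 5434 of all 10109 genes tested. Of the 14, 3 were called: Tm4sf1 (0.50), the intermediate filament protein Vim (0.72) and the transcription factor Sox2 (0.35). Over all genes tested, 7.72% were called and 4.17% were called higher. The 14 averaged from 5.31 (Rarres2) to 10.64 (Pltp) over the 15 arrays, with Tm4sf1 at 8.47, Vim at 9.43 and Sox2 at 7.88. Which cells gave this signal was not tested. Sox2 was not called without null arrays 1 and 5 together, and neither Sox2 nor Tm4sf1 was with the description number as a covariate. The mean deviation of these markers was 0.175 to 0.648 on null arrays, -0.057 to 0.591 on heterozygous arrays and -0.060 to 0.119 on wild-type arrays. Of the plexus epithelium markers, the water channel Aqp1 was called higher (0.34) and the potassium channel genes Kcnj13 (-0.23) and Kcne2 (-0.24) lower, and the 10 measured had a median of -0.008. The Kcnj13 and Kcne2 calls were lost without null array 1 or 3 or wild-type array 1 or 2 (adjusted p = 0.0576 to 0.0803), without null arrays 1 and 5 together, with only the 2 genotypes fitted and with the covariate. The replicate number as a block also ended the Kcnj13 and Kcne2 calls. None of the 6 tested neuronal markers was called, and 4 had negative differences. The part of these cells in the differences of the cilia genes was not tested.

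A second list of 76 motile cilia genes outside the first was also examined. Of these 70 were measured and 47 tested, and 5 were called between null and wild type, all lower in null (10.6%), beside 3.54% called lower and 7.72% called over all genes tested. Their median was -0.04, against 0.012 over all genes. Cfap61, a spoke-base protein, measured 5.98, 6.54, 6.18, 6.46 and 6.53 on null arrays 1 to 5, 6.64, 6.67, 6.65, 6.90 and 6.84 on heterozygous arrays 1 to 5, and 6.98, 6.77, 6.77, 6.63 and 6.82 on wild-type arrays 1 to 5. Every null array lay below every array of the other genotypes, and the difference of -0.46 (adjusted p = 0.0112) was kept without any 1 array and under the other alternatives run. Wdr63, an intermediate chain of an inner arm, measured 5.47, 6.42, 5.70, 5.87 and 6.30 on null arrays 1 to 5, against 6.51, 6.52, 6.50, 6.50 and 6.32 on wild-type arrays 1 to 5, with a difference of -0.52 (adjusted p = 0.0275).

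Morn2 measured 7.14, 8.03, 7.36, 7.61 and 7.82 on null arrays 1 to 5, against 8.06, 8.17, 8.07, 7.89 and 7.90 on wild-type arrays 1 to 5, and was lower by 0.43 (difference -0.43, adjusted p = 0.0434). Efhc2, an inner protein of the doublet, measured 6.61 to 6.86 on null arrays and 6.86 to 7.14 on wild-type arrays (-0.26, adjusted p = 0.0312). Ccdc146 measured 4.88 to 5.40 on null arrays and 5.40 to 5.51 on wild-type arrays (-0.28, adjusted p = 0.0412). The lowest null array was array 1 for each of these, and its removal ended the calls of Wdr63, Efhc2, Ccdc146 and Morn2, as did that of null array 3 and of wild-type array 1, 2 or 3. Further single arrays whose removal ended a call were wild-type array 4 for Wdr63, Ccdc146 and Morn2, wild-type array 5 for Ccdc146, heterozygous arrays 2 and 5 for Ccdc146 and Morn2, and null array 4 and heterozygous arrays 3 and 4 for Morn2. Over these removals the Wdr63 difference was -0.51 to -0.40, that of Efhc2 -0.27 to -0.22, that of Ccdc146 -0.29 to -0.20 and that of Morn2 -0.46 to -0.31. Without null arrays 1 and 5 together, Efhc2, Ccdc146 and Morn2 were not called. With the replicate number as a block, Morn2 was not called. With only the 2 genotypes fitted, Wdr63, Efhc2, Ccdc146 and Morn2 were not, without the filter Efhc2, Ccdc146 and Morn2 were not, with the description number as a covariate Wdr63, Efhc2 and Morn2 were not, and with a variance trend and robust prior Ccdc146 was not.

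Against heterozygotes 6 of the 47 were called, all lower in null (12.8%, beside 3.54% called lower and 7.82% called over all genes tested): Cfap61, Ccdc146, the assembly factor Dnaaf3, Cfap65, the kinesin Kif9 and Cfap161. The call of Cfap61 was lost without null array 1 or 3 or heterozygous array 4 (-0.36 to -0.31, adjusted p = 0.0545 to 0.0656), and that of Ccdc146 without null array 3 (adjusted p = 0.0513). Both were also lost without null arrays 1 and 5 together and with only the 2 genotypes fitted. The calls of Dnaaf3, Cfap65, Kif9 and Cfap161 had adjusted p of 0.0392 to 0.0495 and ended without any 1 heterozygous array, the exception being array 4 for Cfap65, and each ended without 1 or more other arrays. Without null arrays 1 and 5 together Cfap161 was kept (-0.31) and the other three were lost. All 4 calls were lost without the filter and with only the 2 genotypes fitted. Median centring also ended those of Dnaaf3, Cfap65 and Kif9, and a fit of all probe sets those of Dnaaf3 and Kif9. The replicate number as a block ended those of Dnaaf3, Kif9 and Cfap161. The description number ended those of Cfap65 and Kif9 as a covariate, and that of Kif9 as a random block. The regulators that start multiciliated cell formation showed no call. Mcidas differed from wild type by -0.03, Gmnc by 0.13 and Trp73 by -0.03, and Ccno did not pass the filter, at 4.11 to 4.52 in null and 4.11 to 4.17 in wild type. Between heterozygous and wild type none of the 47 was called. In promoter windows, available for 61 of the second list, the X-box in full was found in 4 (6.56%), the arm in 19 (31.1%), either form in 22 (36.1%) and the forkhead letters in 7 (11.5%).

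How far the 44 tested genes varied together within genotypes was described by pairwise correlations. After genotype means were removed, the median Pearson correlation over all pairs of these genes was 0.24 across the 15 arrays, against 0.0431 over pairs of all genes tested. Without null array 1 the 2 medians were 0.183 and 0.0478. For the 6 genes called lower the median was 0.653, and 0.438 without null array 1. Those 6 genes were picked by their calls on the same arrays, so their median cannot serve as a test against unselected genes. Heterozygous array 1, which carried the neural transcripts, was kept for all of these values. The pairs share the same arrays and RNA, so these values are a description of 15 samples.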

How the data were processed

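Per the submitters' processing notes, the arrays were processed with Affymetrix Expression Console 1.1 and RMA. The authors deposited 1 log2 value per probe set and array (35556 probe sets, 15 arrays), and the base of the log was read from the range of the values, 1.57 to 13.89. Array medians lay between 4.78 and 4.88. RMA summarises probes and makes array distributions alike, so a shift shared by all genes is not visible. The sources used here name no genome build for the probes.

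The platform annotation listed 23410 probe sets, of which 21789 had 1 gene symbol and 1621 several, and 12146 were unnamed and not used. Symbols were updated through gene IDs for 21698. Members matched by symbol, all 53 of them, and 8 had several probe sets, of which the one with the highest mean was used. Genes above the overall median of 5.31 in at least 5 arrays were tested. One limma fit (limma 3.58.1, R 4.3.3) held all 15 arrays with genotype as the only factor, giving 12 residual degrees of freedom, and p-values were adjusted by Benjamini-Hochberg over 10109 genes. Called means an adjusted p under 0.05. The fit treated the 15 arrays as independent, and its p-values set a difference against the spread between these samples. Some arrays of the same genotype shared a description number. The 5 null arrays held 4 numbers, the 5 heterozygous arrays 4 and the 5 wild-type arrays 3. The labels do not say what a shared number means. They name separate samples and not litters, and 5 arrays a genotype limit the precision. No pair of arrays was a duplicate: the smallest SD of the difference over 105 pairs was 0.232.

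Members, lists and tests were chosen with earlier results of these data known. Values on every array are given for members called in any comparison, the transcription factors and, in a part without a call, the member with the smallest p; arrays are also listed for Dnali1, Cfap43, Spef2 and Enkur, which were chosen after their values were seen. Alternatives were other filters, all probe sets, 2 other scalings, pairs of genotypes, other variance models, array weights, blocks, a covariate and leaving out arrays. The script was tested on simulated data.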

Additional observations from a re-analysis of the deposited data

Results flagged for a closer look

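In 159 sets of 5 arrays (53 genes in 3 genotypes), the highest or lowest array stood apart from the other 4 by Dixon's 95% criterion 17 times, in 13 genes; chance gives about 1 in 20. Heterozygous array 1, which also carried the neural transcripts, was the lowest in 6 of them: Dnah9 at 7.25 (others 7.61 to 7.70), Dnah11 at 7.12, Ccdc114 at 7.27, Dnah2 at 6.21, Cfap44 at 8.37 and Lrrc6 at 5.18 (others 5.49 to 5.59). Among null arrays, Rfx3 was low on array 2 at 8.41 (others 8.68 to 8.79), Ttc25 on array 3 at 7.44, Dnah1 on array 1 at 4.35 and Stk36 on array 5 at 6.92, and Dnah10 was high on array 2 at 4.87 within a range of a few hundredths. On single heterozygous arrays, Dynlrb2 was high on array 4 at 7.59 (others 7.40 to 7.45) and Stk36 low on array 3 at 7.15. Among wild-type arrays, Rfx3 was low on array 3 at 8.40, Ttc25 on array 2 at 7.47 and Dnah2 on array 3 at 6.17 (others 6.46 to 6.48), and Cfap45 was high on array 1 at 6.58. None of these concerns a null array of a gene called between null and wild type.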

How the results depend on the processing

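For the genes named as called, no called difference changed sign under the alternatives run. For null against wild type, 6 cilia genes and 780 genes in all were called; fitting only those 2 genotypes gave 3 and 458, array weights 12 and 1315, the number in the sample descriptions, which runs with genotype, as a covariate 4 (2 of the 6) and 259, and leaving out null arrays 1 and 5, added after the data were seen, left 4 and 401. Leaving out each array gave 2 to 13 cilia genes and 392 to 1420 genes. For null against heterozygous (7 and 791), no filter gave 2 and 500, the 2 genotypes alone 1 and 342, array weights 11 and 1296, the covariate 1 and 199, null arrays 1 and 5 left out 3 and 332, and each array left out 1 to 13 and 356 to 1812. For heterozygous against wild type (0 and 0), array weights and leaving out null arrays 1 and 5 gave 1 gene, each array left out 0 to 1 genes, and no cilia gene was called. The cause of these changes was not tested. Of the 53 genes only Cfap54 kept its call against wild type under all 12 other settings and all 15 removals of 1 array. The replicate numbers did not pair the arrays: same-number correlations ran from -0.254 to 0.238, 4 of 15 exceeded 0.1, and 1 array correlated best with its own number. With the number as a replicate block, 5, 0 and 5 cilia genes and 520, 0 and 546 genes were called, in the order null over wild type, heterozygous over wild type and null over heterozygous, with 4 of the 6 and 4 of the 7 cilia genes among them. A mean above 6 left no value for Ccdc153 and Ccdc146. Signal near the median of 5.31 and below limits what can be said of the 9 untested genes. Differences near 0 that missed the threshold changed sign, and the cause was not tested. With 1 array left out at a time, the Foxj1 difference ran between -0.0215 and 0.1185 for null over wild type, and between -0.1035 and 0.0365 for null over heterozygous. With the label number as a covariate Foxj1 in null over heterozygous gave 0.01745, and without null arrays 1 and 5 it gave 0.084. For Ccdc114 in null over heterozygous it ran between -0.0185 and 0.0615 with 1 array left out, and was -0.008498 with array weights and -0.04193 with the covariate. For heterozygous over wild type, leaving out 1 array gave values between -0.061 and 0.0195 for Dnaic1 and between -0.073 and 0.0225 for Rsph1, and median centring gave -0.004 for Cfap54.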
